A study of Rattus norvegicus with 8 samples.

Results

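The Arraystar rat lncRNA array carried 861 probes whose names begin with BC and a number, among 24684 probes that were not controls and 9361 that were not for mRNAs. BC followed by a number is the form of a GenBank accession for full-length cDNA clones. The probes were taken by this name alone, each stood for a different accession, and each was printed in 3 spots. A further 61 probes with names in MRBC were not included. They were measured in RNA from 8 tissue samples of male F344 rats, all collected at week 95. Rats that had received NNK, a carcinogenic nitrosamine of tobacco smoke, gave 3 lung tumor tissues and the 3 normal lung tissues matched to them. Blood clots came from 1 control rat and 1 rat given NNK. The normal lung tissues also came from treated rats, so the lung comparison held no untreated lung. The tumors were described in the study's methods as moderately differentiated adenocarcinoma. The NNK clot was used as a clot, as its title, source and tissue labels call it, although a further label described it as tumor tissue.

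Full-length cDNA clones are made by copying whole RNA molecules of a tissue into DNA, so an entry of this kind records a transcript that was once present in some rat library. Clones without a convincing protein-coding frame are often listed as long noncoding RNAs (lncRNAs), a broad class of transcripts that includes regulators of chromatin and transcription as well as many with no assigned role. None of the 861 accessions occurred in the reference gene table used here, so every transcript is given by its accession and no function is stated.

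A slide here means a group of arrays with the same scan date in the file headers, and no slide number was read. Slide 1 held the 3 normal lung arrays and tumor array 1, slide 2 held tumor arrays 2 and 3, and slide 3 both clots. Pairs of normal lung arrays had 1 to 6 BC probes at least 2-fold apart, and tumor arrays 2 and 3 had 3. These pairs differed by less than the spots of 1 probe did among themselves, with ratios of observed to expected squared difference between 0.592 and 0.833. Tumor array 1 differed from tumor arrays 2 and 3 more than that, with ratios of 3.07 and 3.32, and in these ratios the sample and the slide cannot be told apart. Arrays that differed by less than the spots did were also counted as 1 sample, which left 1 normal lung and 2 lung tumor samples. The study's text calls the 3 tumor samples independent. Whether the arrays that differed so little came from separate RNA samples was not tested. The p values measure only the spread between these arrays, so a small p is no measure of the spread between animals. The labelled tissues were checked with marker genes, as mean log2 signals after normalization of all 8 arrays together. For 4 red blood cell genes the mean was 17.29 on the control clot, 17.14 on the NNK clot, 11.00 to 11.03 on normal lung and between 8.93 and 9.05 on lung tumor. For 6 genes of type 2 alveolar cells it was 16.65 to 16.69 on normal lung, 17.27 to 17.29 on lung tumor, and 7.36 and 7.59 on the control and NNK clots. Of these 6 genes, 3 were well above background on the control clot and 5 on the NNK clot. Napsa was the brightest of them there, with 14.05 and 15.05. Sftpc, the surfactant protein C gene that defines type 2 alveolar cells, was not well above background on either clot.

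The BC transcripts were detected more often than the other lncRNA probe classes on every array. Detection here means that over 50% of a probe's spots carried the mark of the Feature Extraction software for a signal well above background. In normal lung 702, 682 and 703 of the 861 BC probes were detected, which is 81.5%, 79.2% and 81.6%. On the lung tumor arrays the counts were 711, 739 and 720, or 82.6%, 85.8% and 83.6%. The control clot showed 545 (63.3%) and the NNK clot 552 (64.1%). All 3 tumor arrays thus lay above all 3 normal arrays by this count, and both clots lay below every lung array. Where 1 spot was enough the lung groups overlapped, with 734 to 748 on normal lung and 736 to 762 on lung tumor. Of the 1702 probes named XR, for predicted RefSeq transcripts, between 34.1% and 50.1% were detected on a lung array. The range on the lung arrays was 42.8% to 56.2% of the 3588 MRAK probes and 31.1% to 44.6% of the 3210 remaining lncRNA probes. Probes for mRNAs came closest, with 72.3% to 76.5% detected in lung, 60.3% on the control clot and 61.6% on the NNK clot. Most mRNA probes had 1 spot and the BC probes 3, but with all spots required to be well above background the BC share on the lung arrays was still 76.8% to 83.0%. On the clots it then fell to between 56.3% and 57.4%, below the 60.3% to 61.6% of the mRNA probes under the same rule. These shares describe the probes on the array and were not tested.

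**Figure D1:**
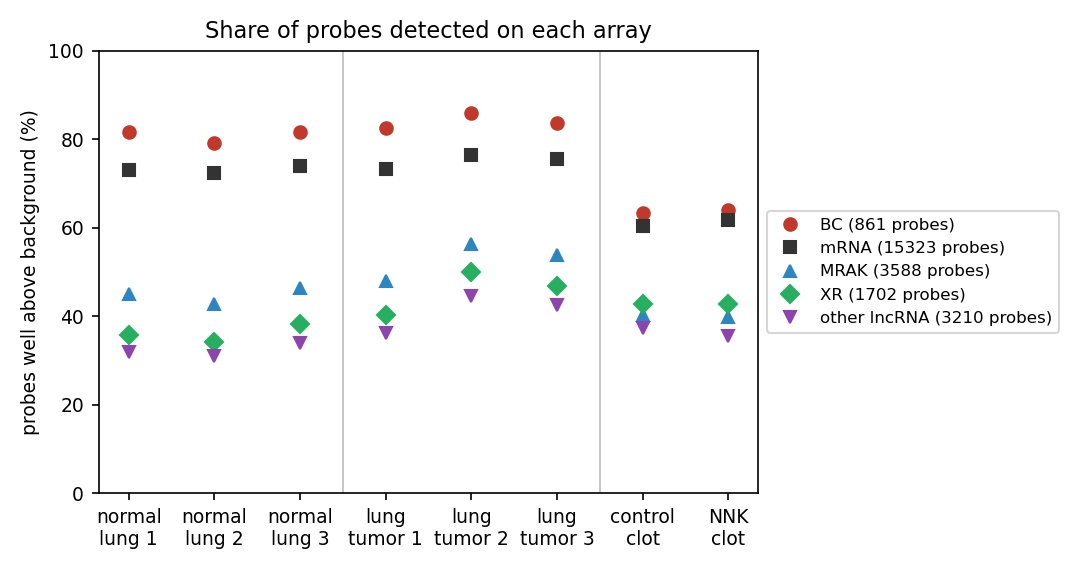
The share of probes well above background (vertical axis, in percent) is plotted for each of the 8 arrays (horizontal axis), with 1 point per probe class. The BC points lie between 79.2% and 85.8% on the lung arrays and near 64% on both clots, next to the mRNA points and apart from the other lncRNA classes.

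Detection was broad rather than confined to 1 tissue. Of the 861 BC probes, 457 (53.1%) were detected on all 8 arrays. The share was 47.8% of the mRNA, 23.9% of the MRAK and 23.8% of the XR probes. On all 6 lung arrays 663 (77.0%) were detected, beside 67.7% of the mRNA probes. Of these, 149 were detected on no clot, or 17.3% of the BC probes. That share was 12.6% for mRNA, 13.0% for MRAK, 4.99% for XR and 7.17% for the remaining lncRNA probes. Only 13 (1.51%) were detected on both clots and on no lung array, beside 1.62% of the mRNA probes. For the other lncRNA classes this share was 3.43% to 4.49%. On no array at all 78 (9.06%) were detected, against 12.2% of the mRNA, 33.8% of the MRAK and 38.5% of the XR probes. On all 3 tumor arrays but no normal lung array 15 (1.74%) were detected, beside 1.44% of the mRNA probes. The other lncRNA classes had 3.04% to 4.17%. On all 3 normal but no tumor array 3 (0.348%) were detected, beside 0.679% of the mRNA probes and 0.195% to 0.353% in the other lncRNA classes.

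The signals of the BC probes were close to each other among the lung arrays. With every spot kept and the 6 lung arrays normalized together, the median log2 signal over the 861 probes was 9.31, 9.30 and 9.32 on the normal lung arrays and 9.55, 9.38 and 9.39 on the lung tumor arrays. The 25th percentile was 4.77 to 5.11 on normal lung and 4.82 to 5.19 on lung tumor. Among the 599 probes tested for a difference in lung, the range over the 3 arrays of a group had a median of 0.10 in normal lung and of 0.22 in lung tumor on the log2 scale. The clots were normalized apart from lung, with medians of 5.62 on the control and 5.64 on the NNK array.

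Whether the BC transcripts differed between lung tumor and normal lung was tested with limma over all 12471 probes that could be tested. Of the BC probes, 68 were higher and 92 lower in lung tumor, at least 2-fold and with an adjusted p of at most 0.05. A fit with the slide as a block sets only tumor array 1 against normal lung. Tumor arrays 2 and 3 shared a slide with no normal array. The median log2 difference over the BC probes was 0.05 under that fit, so the excess of falls did not hold there. It was 0.06 over the mRNA probes and 0.10 over all probes tested. Each of these medians was lower in the main fit, so the shift was not particular to the BC probes. The 68 rises and 92 falls of the main fit are 11.4% and 15.4% of the 599 tested. Over all probes tested the shares were 13.5% and 15.5%, so the BC shares lay near or below the background. In either direction 26.7% of the BC probes were called, beside 29.0% of all probes. The balance of directions lay near that of the mRNA probes, of which 11.5% were higher and 16.8% lower, while 28.2% of the XR probes were higher and 5.16% lower. The median log2 difference was -0.02 over the BC probes, 0.00 over the mRNA probes, 0.58 over the XR probes and 0.07 over all probes tested. Without the 2-fold minimum 421 BC probes (70.3%) passed the adjusted p, beside 65.1% of all probes. The tumor and the normal arrays did not overlap in 470 of the 599 (78.5%), beside 72.9% of all probes. For 9 of the 68 rises and 3 of the 92 falls the transcript was detected on no array of the dimmer group, so that its fold is only a bound. Of the remaining 59 rises and 89 falls, 11 and 28 were at least 4-fold, and 7 and 6 at least 8-fold.

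Of the 861 probes, 145 did not pass the filter, which asked for detection on at least 3 of the 6 lung arrays. A further 117 passed it but were not tested, because outlier marks of the scanner software left fewer than 2 values in a group. Of the BC spots well above background, 5.21% to 9.68% carried such a mark in normal lung and 18.6% to 31.1% in lung tumor. With the marked spots kept, 18 of the 117 were higher and 8 lower in lung tumor, and the counts over the 716 BC probes became 81 higher and 99 lower. When arrays that differed by less than the spots did were taken as 1 sample, 34 were higher and 44 lower, all of them among those called above. That fit has 1 normal sample, which is assumed to vary like the 2 tumor samples, and these lay on different slides. The normexp background correction left 49 higher and 61 lower. Cell-type markers moved between the same groups. In lung tumor 3 of the 4 red blood cell genes tested, 2 of 3 type 1 alveolar genes, 2 of 2 platelet genes tested and 4 of 4 liver genes were lower, while 1 proliferation gene was tested and was higher. The platelet gene that was measured but not tested, Pf4, had higher log2 signals in lung tumor (12.10, 11.87 and 11.95) than in normal lung (10.96, 11.07 and 11.05) with marked spots kept. Of the lists with a single gene tested, the endothelial and the neutrophil gene were lower and the B cell gene higher. Of the others, 1 of 2 airway genes and 1 of 3 macrophage genes were higher, and no gene of type 2 alveolar cells, T cells or smooth muscle was called. The platelet genes tested, Gp9 and Ppbp, were detected on all 3 normal but no tumor array. The B cell gene, Cd79b, was detected on all 3 tumor but no normal array. Gp9, Ppbp and Cd79b thus passed the filter only through the group where they are bright. The mean over the 5 type 1 alveolar genes was 13.41 to 13.47 on normal lung and 12.02 to 12.20 on lung tumor. Of these genes Rtkn2 went the other way. It was detected on no normal lung array (2.5 to 2.8) and on all 3 tumor arrays (3.2 to 4.0). It was brightest on the control and NNK clots (11.10 and 9.95). The mean over the 4 liver genes was 11.03 to 11.11 on normal lung and 7.39 to 8.03 on lung tumor. The part of these markers in the BC differences was not tested. In bulk tissue, fewer cells of a type and less RNA per cell cannot be told apart.

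**Figure D2:**
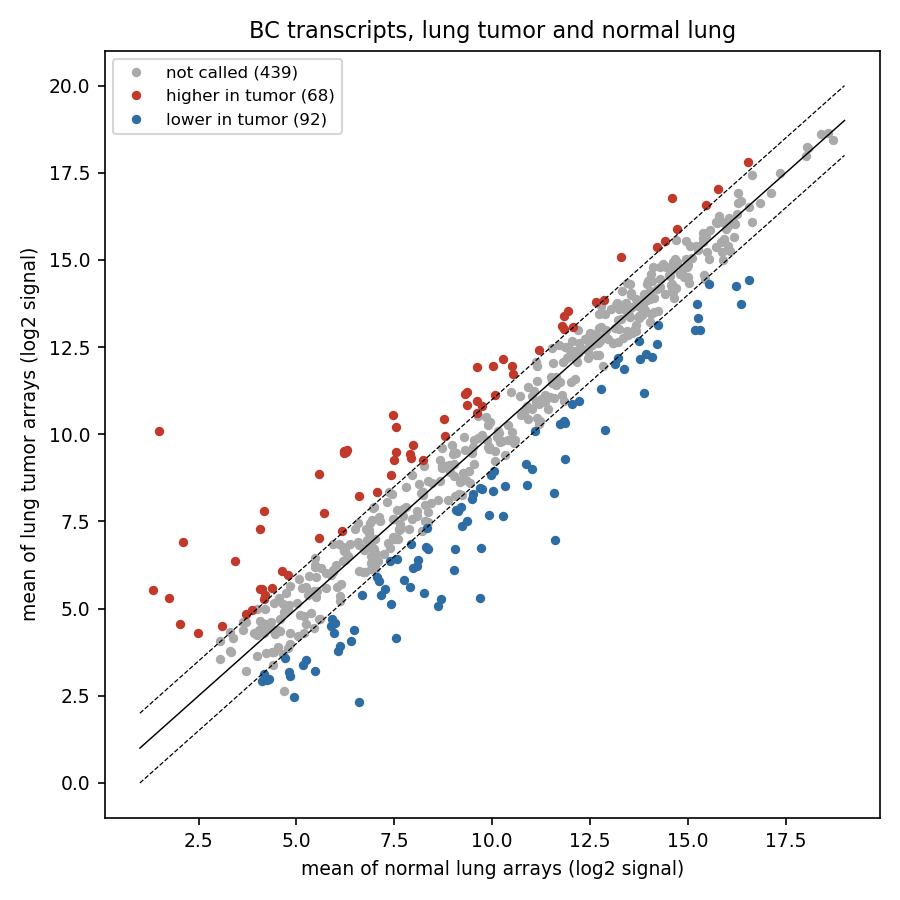
Each point is 1 of the 599 BC transcripts tested, with the mean log2 signal of the normal lung arrays on the horizontal and of the lung tumor arrays on the vertical axis. The solid line marks equal signal and the dashed lines a 2-fold difference, with 68 transcripts called higher and 92 called lower in lung tumor.

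The largest bound on a rise belonged to BC092641, which was detected on no normal lung array and on all 3 lung tumor arrays. Its log2 signal was 1.46, 1.66 and 1.34 on the normal lung arrays and 10.15, 10.04 and 10.13 on the lung tumor arrays. Against the lowest signal that counted as above background it was at least 76.5-fold higher in lung tumor (adjusted p = 1.7e-06, limma). The fitted log2 difference depends on how dim signals are treated, and was 8.62 here and 4.04 with normexp. On both clots it lay at the lowest signal of the array. The same kind of bound was at least 9.09-fold for BC167069, at least 8.33-fold for BC088255 and at least 5.67-fold for BC061982. BC088255 went from 2.36, 1.50 and 2.46 on normal lung to 6.67, 7.04 and 7.02 on lung tumor. BC167069 went from 4.44, 3.89 and 3.86 to 7.55, 7.26 and 7.06, and BC061982 from 3.26, 3.44 and 3.59 to 5.84, 6.61 and 6.62. In each of these 4 the groups did not overlap. The call of BC061982 was lost with normexp, where its difference fell under 2-fold, and with near-identical arrays counted once (adjusted p = 0.0521). Of the 15 probes detected on all tumor but no normal lung arrays, 14 were tested. Such probes passed the filter only through the group where they are bright, so their p values restate in part how they were kept.

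Among transcripts measured above background in both groups, BC169013 rose most. Its log2 signal was 4.10, 4.16 and 4.27 on normal lung and 6.94, 8.17 and 8.26 on lung tumor, so that tumor array 1 stood below the other tumor arrays. The rise was 12.2-fold (log2 difference 3.61, standard error 0.37, adjusted p = 0.000539). On slide 1 alone its log2 difference was 2.77. It was the only 1 of these 8 rises that missed the threshold under any alternative, with an adjusted p of 0.0706 where near-identical arrays were counted once.

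The transcripts BC087137, BC089851, BC091247 and BC091243 rose by nearly equal amounts and had similar signals on every array. BC087137 had log2 signals of 6.33, 6.07 and 6.23 on normal lung and of 9.61, 9.48 and 9.46 on lung tumor, a rise of 9.91-fold (log2 difference 3.31, standard error 0.09, adjusted p = 6.37e-06). The log2 difference was 3.26 for BC089851, 3.24 for BC091247 and 3.24 for BC091243, each with a standard error below that of BC087137. On the control clot the signals of these 4 were between 8.95 and 9.95 and on the NNK clot between 8.34 and 9.20. Whether the 4 probes bind 1 transcript or several was not tested, and the counts of rises take each probe by itself.

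The remaining rises of this group were those of BC087706, BC092191 and BC129114. BC087706 went from 5.71, 5.61 and 5.41 on normal lung to 8.99, 8.84 and 8.78 on lung tumor (log2 difference 3.30, standard error 0.10, adjusted p = 9.05e-06). BC092191 went from 7.45, 7.50 and 7.43 to 10.67, 10.58 and 10.43 (log2 difference 3.10, standard error 0.08, adjusted p = 5.43e-06). Neither of these was detected on a clot. BC129114, which was detected on both clots, went from 7.47, 7.56 and 7.63 to 10.23, 10.15 and 10.27 (log2 difference 2.66, standard error 0.07, adjusted p = 5.67e-06). In all 3 the tumor arrays lay close together and well apart from the normal arrays.

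BC158675 fell most among the transcripts above background in both groups. Its log2 signal was 11.64, 11.60 and 11.58 on normal lung and 7.70, 6.48 and 6.76 on lung tumor, a 24.7-fold fall (log2 difference -4.63, standard error 0.32, adjusted p = 0.000118). BC085122 fell 20.7-fold, from 9.62, 9.70 and 9.74 to 5.60, 5.25 and 5.10 (log2 difference -4.37, standard error 0.14, adjusted p = 9.36e-06). Both were detected on both clots. In both, tumor array 1 held the highest tumor signal, still far below the normal lung arrays.

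Several further falls belonged to transcripts that were seen in lung and not in clots. BC158582 fell from 8.55, 8.63 and 8.67 to 5.42, 5.01 and 4.82 (log2 difference -3.53, standard error 0.16, adjusted p = 2.74e-05). BC158772 fell from 8.56, 8.70 and 8.78 to 5.47, 5.20 and 5.15 (log2 difference -3.41, standard error 0.11, adjusted p = 1e-05). BC105846 fell from 11.51, 11.58 and 11.60 to 8.37, 8.30 and 8.24 (log2 difference -3.26, standard error 0.06, adjusted p = 3.93e-06). BC100097 was dimmer on lung tumor and more spread, with 7.59, 7.50 and 7.51 on normal lung against 4.56, 4.27 and 3.66 (log2 difference -3.37, standard error 0.23, adjusted p = 0.000121). None of these 4 was detected on either clot. BC088229, detected on 1 clot, went from 9.69, 9.72 and 9.74 to 6.86, 6.72 and 6.63, a log2 difference of -2.98 with a standard error of 0.07. BC085866, detected on both, went from a mean of 9.04 on normal lung to 6.17, 6.08 and 6.09 on lung tumor, a log2 difference of -2.92 with a standard error of 0.06. In all 8 of these largest falls the groups were separate, and all 8 stayed past the threshold under each of the 23 alternatives run. The alternatives without the fold minimum and with the unadjusted p only loosened the rule of the main fit. No call could be lost in them, and the 8 were chosen as the largest falls on these arrays.

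On all 3 normal but no tumor array 3 transcripts were detected, which likewise passed the filter only through the group where they are bright. BC105757 had log2 signals of 6.54, 6.64 and 6.62 on normal lung and 2.58, 2.42 and 1.95 on lung tumor, so that normal lung was at least 10.8-fold higher (adjusted p = 1.79e-05). For BC161875, with 4.89, 5.14 and 4.81 against 2.70, 2.38 and 2.28, normal lung was at least 3.44-fold higher (adjusted p = 6.4e-05), and this call was lost with normexp, where the difference fell under 2-fold. For BC168971, with 4.84, 4.41 and 3.68 against 3.77, 2.66 and 2.48, the groups overlapped and the bound was 2.19-fold (adjusted p = 0.0464). This last call was lost in 9 of 19 alternatives. Among them was the slide as a block, where tumor array 1 alone gave a log2 difference of -0.54.

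**Figure D3:**
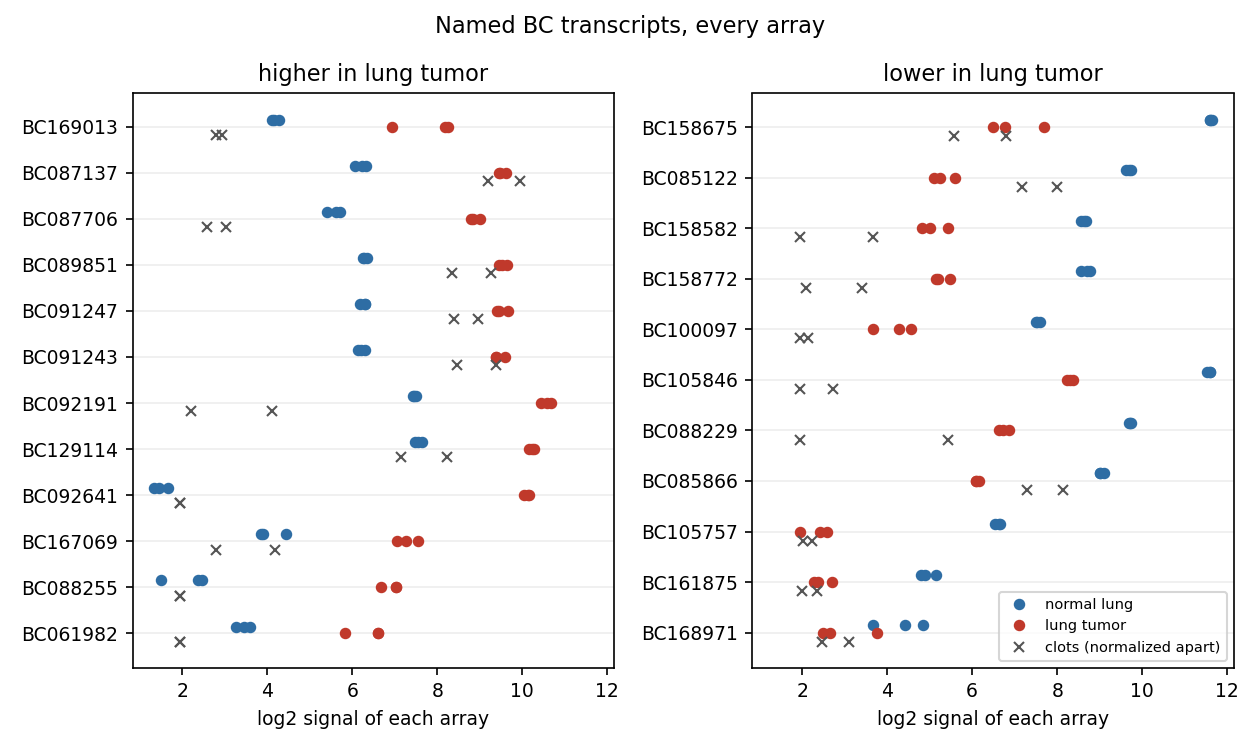
The log2 signal of every array (horizontal axis) is shown for 12 BC transcripts called higher (left panel) and 11 called lower (right panel) in lung tumor, with 1 row per transcript. Blue points are the 3 normal lung arrays, red points the 3 lung tumor arrays and crosses the 2 clots, which were normalized apart from lung and are not comparable in level. In every row except BC168971 the blue and red points are separate.

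The accession number, which the selection used only as a prefix, divided the members by the order in which clones were deposited. Of the 247 accessions from BC160825 to BC169129, 180 were tested, 23 were higher and 14 lower in lung tumor. Of the 187 from BC081695 to BC089999, 126 were tested, 19 were higher and 27 lower. From BC090002 to BC099800, 13 were higher and 24 lower among 149 tested of 208. From BC100069 to BC107944, 1 was higher and 11 lower among 48 tested of 73. Over all probes tested the shares were 13.5% higher and 15.5% lower. Detection on all 6 lung arrays was between 74.0% and 82.7% in these 4 ranges. It was 71.6% from BC157820 to BC159439, where 4 were higher and 7 lower among 53 tested of 81. In the smaller ranges it was 58.8% (BC058457 to BC064030), 80.0% (BC072467 to BC079474) and 57.1% (BC111073 to BC133729). The ranges differ in size and the differences between them were not tested.

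On the clots, with 1 array per group, differences are described without a test. Of the 589 BC probes detected on at least 1 clot, the NNK clot exceeded the control clot 2-fold or more in 143 and fell short of it by as much in 85. These are 24.3% and 14.4%, beside 23.1% and 19.1% of the 14452 probes compared. The direction again went with the mRNA probes, of which 26.0% were higher and 17.8% lower, whereas 16.7% of the XR probes were higher and 22.5% lower. Among the 508 BC probes detected on both clots 109 (21.5%) were higher and 67 (13.2%) lower, beside 18.1% and 14.9% of the 11615 probes detected on both. The split depended on the processing, with 62.7% of the changed BC probes higher in the main values, 52.9% after the 75th percentile shift and 75.3% after normexp. The percentile shift also moved the median over all probes, from -0.11 to -0.26.

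BC167051 was higher on the NNK clot by the widest margin among probes detected on both, with log2 signals of 9.20 on the control and 13.40 on the NNK clot, a difference of 18.4-fold. BC166474 followed, with 11.08 and 15.08 (16.1-fold), and then BC086405, with 6.29 and 9.29 (7.98-fold). BC088327 went from 6.87 to 9.71 and BC092582 from 7.81 to 10.61. The spots of a probe gave these 5 log2 differences a standard error of 0.07 to 0.15, which is not an error between animals. In lung none of the first 3 was called, with log2 differences of 0.38 for BC167051 (adjusted p = 0.0054, under 2-fold), 0.14 for BC166474 and -0.09 for BC086405. Over 8 alternatives the clot difference was between 2.94 and 4.20 for BC167051, between 2.58 and 4.00 for BC166474 and between 2.23 and 4.28 for BC086405. The order of these is that of the clots normalized together, and with all 8 arrays normalized together BC086405 (4.28) lay above BC167051 (3.08).

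The widest margins in the other direction were those of BC097994, from 9.04 on the control to 5.78 on the NNK clot (9.60-fold), and BC090338, from 7.50 to 4.39 (8.62-fold). BC088259 went from 7.76 to 4.69, BC168199 from 9.41 to 6.35 and BC099754 from 7.60 to 5.05. The standard error from the spots was between 0.17 and 0.95 on the log2 scale for these 5. The processing moved them widely, between -5.36 and -1.54 for BC090338, between -5.22 and -1.63 for BC088259 and between -4.97 and -2.30 for BC097994 over 8 alternatives. Their order changed too, since with all 8 arrays normalized together BC088259 (-5.22) and BC090338 (-5.21) exceeded BC097994 (-4.97). BC090338 and BC099754, lower on the NNK clot, were higher in lung tumor, by 1.46 (adjusted p = 0.000488) and 1.33 (adjusted p = 0.000166) on the log2 scale, both without tumor array 3, which kept no value. BC168199 was 2.14-fold higher in lung tumor (adjusted p = 0.00676), but with the marked spots kept its log2 difference was 0.76, under 2-fold. BC088259 was lower in lung tumor too, with a log2 difference of -1.48 (adjusted p = 1.47e-05). Of the 68 transcripts higher in lung tumor 43 could be compared on the clots, and 2 of them were at least 2-fold higher and 8 lower on the NNK clot. Of the 92 lower in lung tumor 63 could be compared, with 16 higher and 14 lower. Of the 439 not called in lung 345 could be compared, with 92 higher and 35 lower. The relation between the lung and the clot differences was not tested, since the clots had no replicates.

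**Figure D4:**
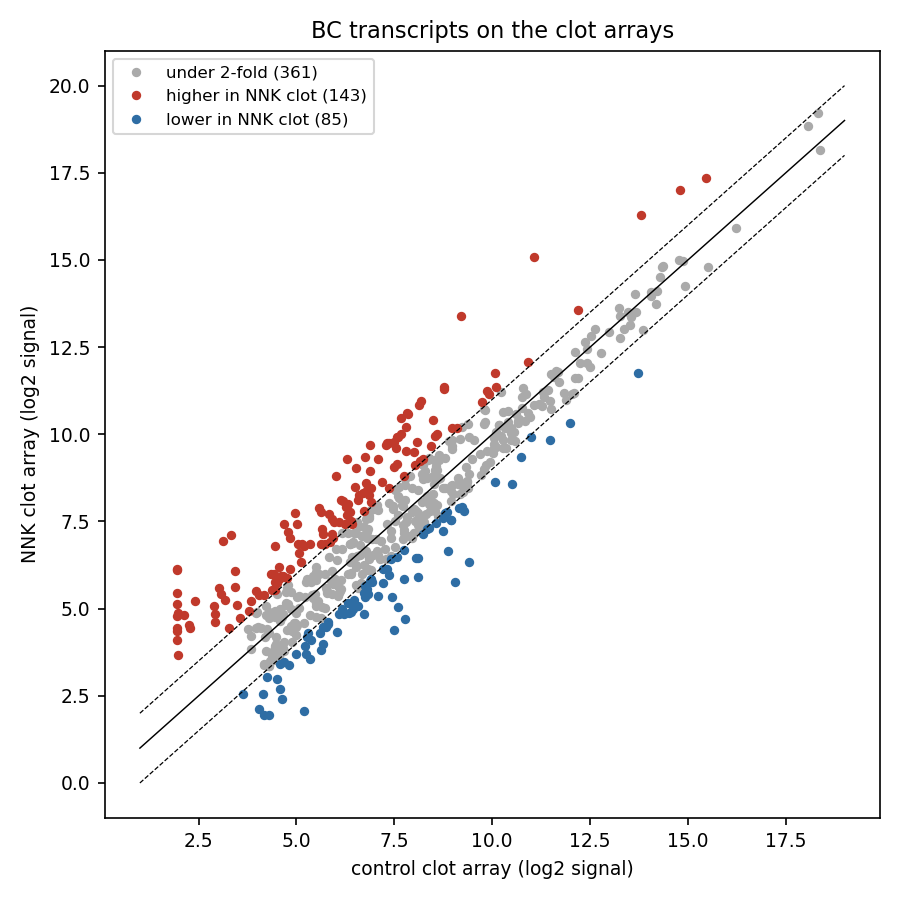
Each point is 1 of 589 BC transcripts detected on at least 1 clot, with the log2 signal on the control clot (horizontal axis) and on the NNK clot (vertical axis). The solid line marks equal signal and the dashed lines a 2-fold difference, with 143 transcripts above and 85 below them.

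Between lung and clots the levels were set side by side after normalization of all 8 arrays together. Before normalization the clots were dimmer. The 75th percentile of the signal was 1191 to 1329 on the lung arrays, 95.4 on the control clot and 206 on the NNK clot. Normalization gave all 8 arrays the same distribution, so levels and bounds are relative to the other probes and are not amounts of RNA. Tissue, slide and hybridization cannot be told apart in this contrast, and it was not tested. Of the 149 transcripts detected on all 6 lung arrays and on no clot, 119 were at least 2-fold brighter in lung against the lowest signal above background on the clots. BC085903 was the furthest apart, with 15.62, 15.58 and 15.63 on normal lung, 14.88, 14.96 and 15.07 on lung tumor, and 1.72 and 4.54 on the control and NNK clots. It was at least 1534-fold brighter in lung. The bound was at least 1392-fold for BC089062, 719-fold for BC168655 and 521-fold for BC091437, each from the arrays that kept a value. Outlier marks left BC089062 with tumor array 1 alone and the other 2 with no tumor array. With the marked spots kept, the log2 difference of lung tumor from normal lung was -1.98 for BC168655 (adjusted p = 1.86e-05) and -1.13 for BC089062 (adjusted p = 3.77e-05).

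The 13 transcripts detected on both clots and no lung array were all at least 2-fold brighter on the clots. BC105873 had 9.63 and 7.74 on the control and NNK clots and between 1.53 and 2.76 on the lung arrays, which makes the clots at least 38.2-fold brighter. The bound was 30.4-fold for BC169046, 22.6-fold for BC092653 and 21.4-fold for BC100254. With the marked spots kept and the clots normalized apart, BC105873 had the same log2 signal of 6.14 on both clots, while the bound above was computed without the marked spots. In the middle stood 377 transcripts detected on all 8 arrays that kept enough values. Of these, in the values normalized over all 8 arrays, 130 had every lung array at least 2-fold above both clots. In 101 both clots lay at least 2-fold above every lung array.

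**Figure D5:**
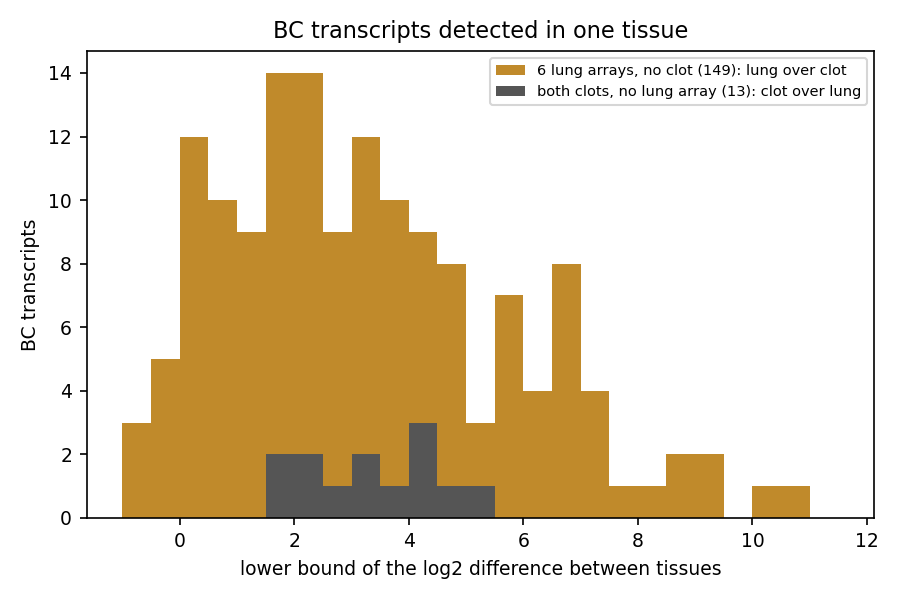
The lower bound of the log2 difference between tissues (horizontal axis) is shown as a histogram, with the number of BC transcripts on the vertical axis. The 149 transcripts seen on all 6 lung arrays and no clot (lung over clot) reach 10.58, and the 13 seen on both clots and no lung array (clot over lung) reach 5.25.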

How the data were processed

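Per the file headers, the authors measured each array with Agilent Feature Extraction 10.5.1.1 in 1 colour, and deposited for every spot an intensity with the background subtracted and no normalization across arrays. A table the authors deposited beside these holds 1 log2 value per probe, quantile-normalized over all 8 arrays. The intensities were taken to log2 and quantile-normalized within the 6 lung arrays, and apart from them within the 2 clots (R 4.3.3, limma 3.58.1). Spots with an outlier mark were dropped, and the rest averaged per probe. Probes detected on at least 3 of 6 lung arrays, or 1 of 2 clots, were kept. Lung groups were tested over all probes with limma (lmFit, eBayes), two-sided, with Benjamini-Hochberg adjustment, and called at 2-fold and an adjusted p of 0.05. Bounds set the brighter group against the lowest signal well above background. The limma fit and the t-test of the lung comparison were tried on simulated probe values for 6 independent arrays. The normalization, the dropping of marked spots, the filter and the bounds were not.

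Transcripts were named by rank. These were the 8 largest rises and falls above background in both lung groups, up to 4 bounds in each direction among probes dim in 1 lung group, the 5 largest differences in each direction between clots detected on both, and 4 bounds between tissues in each direction. BC158675 and BC167051, named in an earlier account of these data, were added. The members, lists and rules were chosen with earlier results of these data known. The labels call the tumor and normal tissues matched and number them. Deviations from the group means correlated at 0.15, -0.04 and 0.16 within pairs 1, 2 and 3. Marker genes took their names from a RefSeq table (assembly GRCr8), which 14274 of 15323 mRNA probes matched (93.2%). The number of arrays limits the precision.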

Additional observations from a re-analysis of the deposited data

How the results depend on the processing

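Over the alternatives run, the 24 transcripts followed in lung and the 11 followed on the clots kept their direction. Of 524 lung results, 510 kept their side of the threshold (13 were lost and 1 gained). The runs without the fold minimum and with the unadjusted p judged the main fit by a looser rule. No call could be lost in them. The count of BC transcripts called in lung was 68 higher and 92 lower. It moved by over 1.5 times in at least 1 direction with the near-identical arrays counted once (34 and 44), without the fold minimum (198 and 223) and with normexp (49 and 61), where a constant was added before log2. The normexp run also started from the median signal and background of each spot, in place of the background-subtracted intensity of the main fit. With the replicate number as a block the count was 66 and 89, so the pairing changed neither count by over 1.5 times. With the slide as a block only tumor array 1 is set against normal lung. The median log2 difference over the BC probes was then 0.05 in place of -0.02, and over all probes tested 0.10 in place of 0.07. With 1 lung array left out the count was 46 to 69 and 80 to 100, the extremes (46 and 100) without tumor array 1. The methods' t-test gave 67 and 91 unadjusted and 66 and 87 adjusted, and its paired form 49 and 79, and 47 and 72. The unadjusted p in limma, added after the data were seen, gave 69 and 93. On the clots, normexp left 73 higher and 24 lower, and the authors' values gave 131 lower. The count seen in lung and not on clots was 66 with positive and significant spots in place of well above background. The count seen on clots and not in lung was 2 with that rule and 8 where 1 spot was enough. The causes were not tested.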
